A study of Mus musculus with 18 samples.

Results

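The genotype difference in m6A-tagged over unbound RNA asks, gene by gene, how the split of a transcript between the antibody-bound and the antibody-unbound fraction differed between Mettl3-deficient and wild-type haematopoietic stem cells (HSCs). It was computed as log2((m6A-tagged + 1)/(unbound + 1)) in Mettl3-deficient cells minus the same quantity in wild-type cells, on RPKM values (reads per kilobase of gene and per 1e6 reads). Genes entered if the 6 columns of the study averaged 10 RPKM or more, which left 6295 of 23038. A negative value means that less of the transcript was on the tagged side in Mettl3-deficient cells, and folds are on this scale, which understates differences of genes with low values. Just inside the minimum, Topbp1 (mean 10.003 RPKM) had a difference of 1.92 and Tgtp1 (10.009) one of -1.18, and just outside it 1700113A16Rik (9.996) had -0.29 and Cpne8 (9.9956) -0.36.

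N6-methyladenosine (m6A) is a modification placed on mRNA by a writer complex whose catalytic subunit is Mettl3 and whose other core subunit is Mettl14. Reader proteins such as those of the Ythdf family bind it, and it is known to affect the decay and translation of transcripts. In m6A immunoprecipitation an antibody against the modified base retains methylated RNA, and the RNA that is not retained is washed off and forms the unbound fraction.

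Both groups were C57BL/6 mice, and the treatment protocol in the labels applies to every sample. It gives 5 intraperitoneal doses of 10 µg pIpC, an inducer of interferon, and analysis 10 days after the last. The wild-type group carries no allele in its labels, and the Mettl3-deficient group is Mx1-cre; Mettl3 fl/fl, in which the interferon-responsive Mx1 promoter drives the Cre that deletes the floxed gene. Neither the sex, the exact age nor the number of mice behind a sample is given. Lineage- Sca1+ cKit+ CD150+ CD48- bone marrow cells were sorted, 3000 per sample, and poly(A)+ RNA went through the antibody step without a described fragmentation. Each of the 4 fractions compared had 3 libraries, 12 of the 18 in the study, which its design text calls biological replicates. The authors deposited 1 RPKM column per group, the mean of its 3 libraries, so every value below is a single number without a spread over replicates, and no test between genotypes could be made. A difference of 2-fold is used to count genes and is a description only.

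Library depth, worked out from the values in units of 1e6 reads, was 24.30 to 27.38 in wild-type unbound, 30.32 to 34.99 in wild-type m6A-tagged, 12.24 to 27.27 in Mettl3-deficient unbound and 25.89 to 33.59 in Mettl3-deficient m6A-tagged RNA. Pairs of values without group names are given wild-type first and Mettl3-deficient second throughout. The Mettl3 gene had 36.4 and 19.6 RPKM in input; the columns count the whole gene, so reads from exons outside the deleted part remain in that value. Its own genotype difference was 0.47. Of the genes for the sort markers, Kit, Ly6a (Sca1) and Slamf1 (CD150) were present in all columns, as were the HSC genes Procr and Hlf. Cd48, for which the sort was negative, was at 15.5, 11.1 and 28.1 RPKM in wild-type input, unbound and tagged RNA and at 5.54, 3.69 and 7.24 RPKM in the Mettl3-deficient columns. The myeloid lineage gene Itgam was at 14.4, 16.3 and 17.4 RPKM against 1.46, 0.0965 and 1.75 RPKM, and the T cell gene Cd3e was at or below 0.0442 RPKM throughout. Most granule genes of neutrophils and eosinophils were lower in Mettl3-deficient cells, with Mpo at 653 against 62.1 RPKM and Prg2 at 655 against 5.52 RPKM in input. The granule gene Prtn3 differed less, at 503 against 326 RPKM in input, and its unbound RNA was higher in Mettl3-deficient cells (774 and 1020 RPKM). What granulocytes contribute to the values of other genes was not tested. Fewer cells of a type and less RNA per cell cannot be told apart in such bulk samples.

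Genes differed in both directions in like numbers. The m6A-tagged over unbound ratio was at least 2-fold higher in Mettl3-deficient cells for 1493 genes (23.7% of the 6295) and at least 2-fold lower for 1435 (22.8%). At 4-fold the counts were 503 higher and 504 lower, and at 8-fold 95 and 123. The median difference was -0.01, with quartiles of -0.92 and 0.95, a standard deviation across genes of 1.41 and a range from -5.74 to 4.65. RPKM is scaled to the total of each library, which largely sets this median, so the values do not show whether RNA as a whole was on the unbound side more often in one genotype.

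Many transcripts were still on the tagged side in Mettl3-deficient cells. Tagged RNA was 2-fold above unbound for 1982 genes (31.5%) in wild-type and 2122 genes (33.7%) in Mettl3-deficient cells, and 2-fold below for 1218 (19.3%) and 1061 (16.9%). Of the 1982 wild-type genes, 1156 were also 2-fold higher in Mettl3-deficient cells, 787 were within 2-fold and 39 were 2-fold lower there. In turn, 881 genes within 2-fold in wild-type and 85 that were 2-fold lower in wild-type were 2-fold higher in tagged RNA in Mettl3-deficient cells. The extreme ratios differed in number, with 479 genes at least 8-fold higher in tagged RNA in wild-type, 217 in Mettl3-deficient cells and 52 in both. Across the 6295 genes the ratios of the genotypes, which share no library, correlated with a Pearson coefficient of 0.56 and Spearman's rho of 0.58; genes are not independent replicates.

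**Figure D1:**
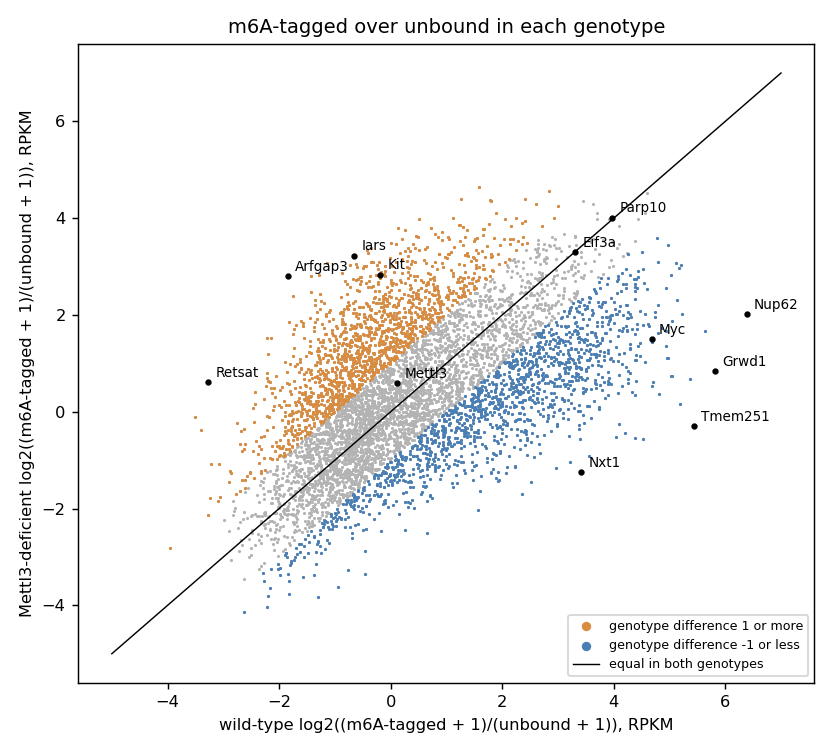
Each point is 1 of 6295 genes, with the log2 m6A-tagged over unbound ratio in wild-type cells on the horizontal axis and in Mettl3-deficient cells on the vertical axis, and the line marks equal ratios. Genes with a difference of 1 or more (1493) lie above the line and those with -1 or less (1435) below it, and ratios above 5 occur in wild-type cells while the highest in Mettl3-deficient cells is 4.64.

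Most of the difference lay in the unbound columns. The difference of a gene is its change in tagged RNA minus its change in unbound RNA between genotypes. The standard deviation across genes was 0.76 for the tagged change and 1.38 for the unbound change. Between genotypes, 379 genes (6.02%) were 2-fold higher and 450 (7.15%) 2-fold lower in tagged RNA, against 1237 (19.7%) and 1427 (22.7%) in unbound RNA. The unbound change was the larger for 80.3% of the genes with a 2-fold higher ratio and 82.0% of those with a 2-fold lower ratio, against 68.7% of all 6295 genes. The tagged column differed by under 2-fold for 81.5% and 85.3% of these genes, slightly less often than for all genes (86.8%). The median unbound change was -1.47 for the genes with a higher ratio and 1.43 for those with a lower ratio, while the median tagged changes were 0.30 and -0.31.

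**Figure D2:**
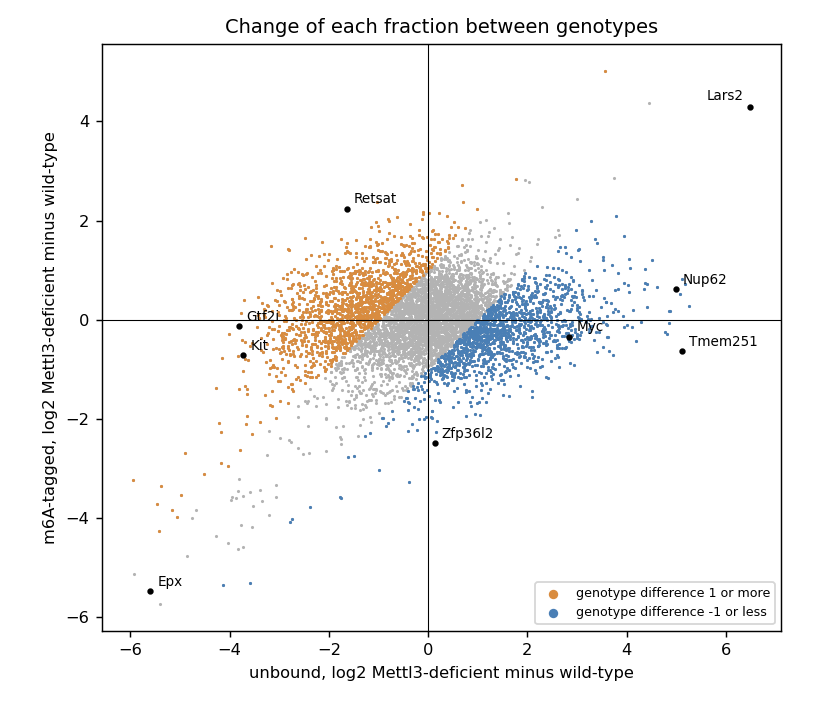
Each point is 1 of 6295 genes, with the log2 change of unbound RNA (Mettl3-deficient minus wild-type) on the horizontal axis and that of m6A-tagged RNA on the vertical axis. The coloured genes spread mainly along the horizontal axis, and a group that includes Epx, an eosinophil granule gene, is low in both fractions.

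The genes with the lowest differences were rare in wild-type unbound RNA and common in Mettl3-deficient unbound RNA. The most extreme was Tmem251, which codes for a small Golgi membrane protein and lies on chromosome 12 from position 102743719 to 102745406 (mm10). Its wild-type columns were 28.5 RPKM in input, 0.372 in unbound and 58.6 in tagged RNA, and its Mettl3-deficient columns were 28.6, 46.6 and 37.5 RPKM in the same order. Input was nearly equal, tagged RNA differed by under 2-fold, and unbound RNA was the column that set the gene apart. Mrm3, a methyltransferase of mitochondrial rRNA, had 0.0477 and 29.7 RPKM in unbound RNA, with 42.0 and 47.9 RPKM in tagged RNA. Nup62, a central channel protein of the nuclear pore, had 0.341 and 41.6 RPKM in unbound and 111 and 171 RPKM in tagged RNA.

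The same holds for the other genes at this end. In all 15 genes with the lowest difference (Tmem251, Tefm, Rpp38, Grwd1, Rtp4, Mrm3, Nxt1, Ccnq, Mfsd5, Tpst2, Trp53rka, Nup62, Clp1, Nrros and Phax) the unbound change was the larger, between 3.66 and 5.25. Their tagged changes lay between -0.72 and 0.82. For 9 of the 15 the unbound column exceeded the input column in Mettl3-deficient cells only. The ranking itself uses the unbound columns. The share over all genes compared was not worked out, so this count marks no trait of the 15. Several of the 15 act on RNA, which was noticed after the ranking. Tefm is an elongation factor of mitochondrial transcription, Rpp38 a subunit of ribonuclease P and Grwd1 a ribosome assembly factor. Nxt1 is an mRNA export factor, Clp1 an RNA kinase and Phax an export adaptor of small nuclear RNA. The share of such genes among all genes compared was not worked out, so they mark no trait of this end. The 15 highest genes include the mRNA decapping scaffold Edc4 and the tRNA-charging enzyme Iars. Lists of RNA genes did not all lie at the low end. Of 38 RNA helicases 18 were 2-fold higher and 1 lower, and of 86 splicing factors and hnRNPs 36 and 7. Of 9 ribonuclease P and MRP subunits 0 were higher and 5 lower. That list was chosen because some members ranked among the lowest, so its low side follows in part from the ranking.

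Low columns stand behind several of these folds. Reads of single libraries could be worked out for few genes. For Tmem251 the only gene length that gave whole reads was 1205 bases, with 7, 10 and 15 reads in the 3 wild-type unbound libraries; 0.11 such matches were to be expected by chance. Mrm2, another mitochondrial rRNA methyltransferase, had 0 reads in each of the 3 wild-type unbound libraries and 82, 88 and 114 reads in the 3 Mettl3-deficient ones. Its length could be worked out because a column held no reads. The 0 reads shared by the 3 wild-type libraries thus follow from how the gene came to be solved. Of the 6295 genes, 134 were under 1 RPKM in wild-type unbound and 102 in Mettl3-deficient unbound RNA, against 2 and 7 in the tagged columns.

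Genes with more than a few RPKM in every column had the same pattern. Among the 4900 genes with at least 5 RPKM in each of the 4 columns, the lowest differences were those of Nxt1, Tpst2, Rpp25l, Tmem60, Pop7, Inka1, Pradc1, Lsm10, B9d2 and 0610009B22Rik. Nxt1 had 12.1 and 375 RPKM in unbound RNA, and 139 and 157 RPKM in tagged RNA. Its input was 63.1 and 141 RPKM, so that the transcript itself was also more abundant in the Mettl3-deficient column. Tpst2, a tyrosylprotein sulfotransferase, had 15.2 and 586 RPKM in unbound RNA, with input at 111 and 358 RPKM. In all 10 genes the unbound change was the larger and unbound exceeded input in Mettl3-deficient cells only. Since the ranking uses the unbound columns, these counts mark no trait of the 10 genes.

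At the other end, genes were common in wild-type and scarce in Mettl3-deficient unbound RNA. Arfgap3, which activates the GTPase of Arf1 at the Golgi, lies on chromosome 15 from position 83299739 to 83350375 and had the highest difference, 4.65. Its wild-type columns were 16.3, 24.5 and 6.10 RPKM in input, unbound and tagged RNA, and its Mettl3-deficient columns 16.05, 1.83 and 18.8 RPKM. Here both fractions differed, in opposite directions, around a nearly equal input. Acly, which makes cytosolic acetyl-CoA, had 105 and 7.06 RPKM in unbound RNA and 42.6 and 56.4 RPKM in tagged RNA. Stat5a, a transcription factor downstream of cytokine receptors, had 33.6 and 3.81 RPKM in unbound and 19.8 and 38.5 RPKM in tagged RNA.

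The unbound change was the larger in 14 of the 15 highest genes (Arfgap3, Edc4, Anks3, Carmil2, Acly, Atxn2l, Snx9, Retsat, Iars, Stat5a, Per1, Msmp, Capn1, Hgs and Skiv2l). The exception was Retsat, a retinol saturase, whose tagged RNA was at 7.97 and 41.3 RPKM. In 9 of the 15, unbound RNA exceeded input in wild-type cells only. This count too comes from a ranking that uses the unbound columns, and its share over all genes was not worked out. Tagged RNA was within 2-fold between genotypes for 8 of the 15, against all 15 at the low end. Among the genes with at least 5 RPKM throughout, Mthfd1 of folate metabolism, the transcription factor Gtf2i, the DNA polymerase subunit Pold1 and the polyadenylation factor Cpsf1 also ranked highest. Another annotated gene overlaps 10 of the 15 highest genes and 5 of the 15 lowest, sets with median spans of 16380 and 6198 bases. The share of all 6295 genes that overlap another is not given here, so these counts describe no trait of either end. Smart-seq2 does not mark strand, so reads of overlapping genes cannot be told apart. Gtf2i had 121 and 7.70 RPKM in unbound and 78.9 and 71.7 RPKM in tagged RNA.

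**Figure D3:**
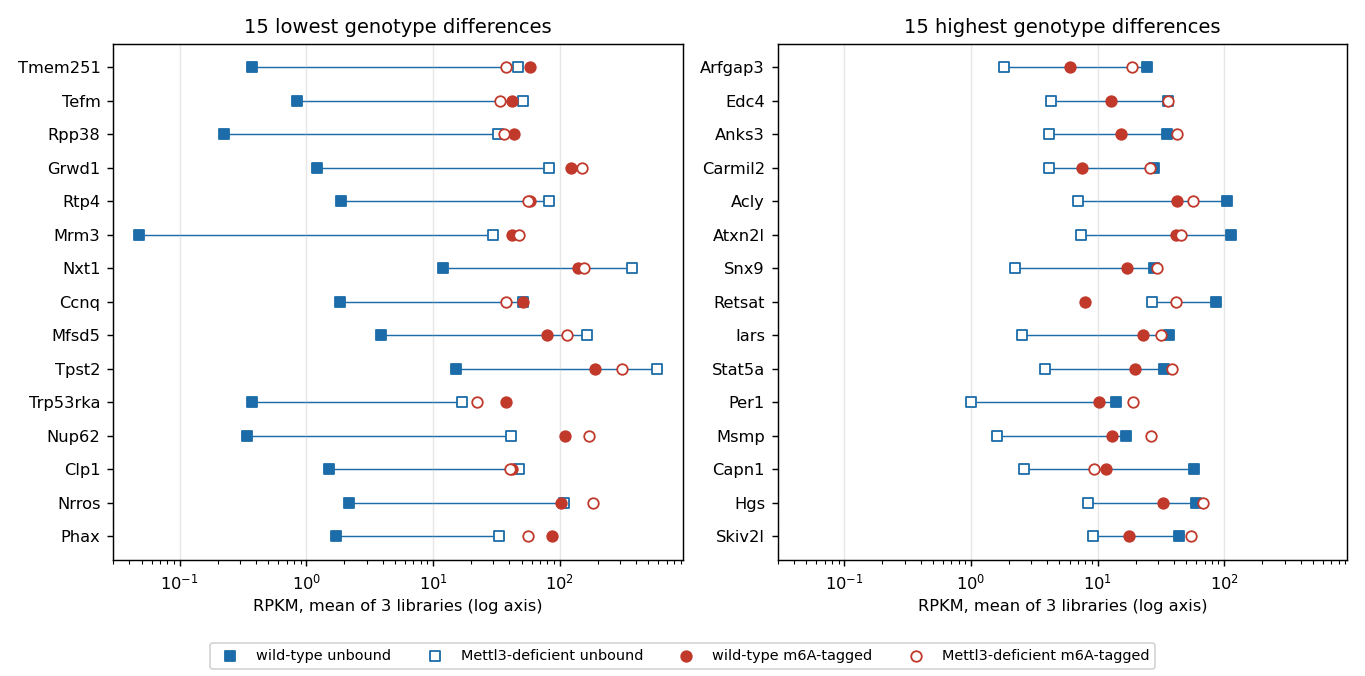
RPKM of the 15 genes with the lowest and the 15 with the highest difference, on a logarithmic axis; squares are unbound and circles m6A-tagged RNA, filled for wild-type and open for Mettl3-deficient cells, and a line joins the unbound values. On the left the open squares lie right of the filled ones by 3.66 to 5.25 on the log2(RPKM + 1) scale while the circles stay close together, and on the right the order of the squares is reversed.

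Some genes lay on opposite sides in the genotypes. Of the 39 genes 2-fold higher in tagged than in unbound RNA in wild-type and 2-fold lower in Mettl3-deficient cells, Nxt1, Rpp25l, Spryd4, Tmem60 and Pop7 had the lowest differences. Pop7, on chromosome 5 from position 137501439 to 137502429, had 17.6 and 106 RPKM in wild-type unbound and tagged RNA and 226 and 82.4 RPKM in Mettl3-deficient cells. Of the 85 genes with the opposite pattern, Arfgap3, Edc4, Anks3, Carmil2 and Acly had the highest. Edc4, a scaffold of mRNA decapping, had 36.1 and 12.8 RPKM in wild-type unbound and tagged RNA and 4.27 and 35.9 RPKM in the Mettl3-deficient fractions.

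Other genes kept a high ratio in both genotypes. Among the 52 genes at least 8-fold higher in tagged RNA in both, Eif3a, Swap70, Angpt1, Parp10 and Dnttip2 were the most alike. Eif3a, a subunit of the translation initiation factor that binds the small ribosomal subunit, had 6.52 and 73.3 RPKM in wild-type unbound and tagged RNA and 2.88 and 37.0 RPKM in Mettl3-deficient cells, a difference of -0.01. Angpt1, a ligand of the Tek receptor, had 7.97 and 88.2 RPKM against 4.79 and 57.5 RPKM, a difference of 0.02. Both fractions of these 2 genes were lower in Mettl3-deficient cells by a like amount.

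The difference followed the genomic span of the gene, a feature that the selection of genes did not use. A span in RefSeq, on the GRCm38.p6 assembly that mm10 corresponds to, was matched for 6287 of the 6295 genes. In 272 genes of up to 2000 bases the median difference was -0.81, with 43.0% 2-fold lower and 5.51% 2-fold higher. In 187 genes over 128000 bases it was 0.94, with 6.42% lower and 47.1% higher. Over 5 groups of equal size by span the medians were -0.67, -0.24, 0.02, 0.42 and 0.63. The median span was 9771 bases for the genes with a 2-fold lower ratio, 26166.5 bases for those with a 2-fold higher ratio and 15996 bases for all.

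This order again lay in the unbound change. Across 6287 genes the Spearman correlation with span was 0.34 for the difference, -0.35 for the unbound change and -0.02 for the tagged change. For the tagged over unbound ratio itself the coefficient was 0.09 among wild-type and 0.41 among Mettl3-deficient values. In the genes up to 2000 bases the median ratios were -0.27 and -0.85, and over 128000 bases they were 0.10 and 1.26. The 5 medians ran in the same order in the lower-expressed genes, from -0.85 to 0.67, and in the higher-expressed genes, from -0.62 to 0.62. The outer groups differed by 1.31 with the minimum of 10 RPKM and by 1.33 with a minimum of 50 RPKM. With at least 5 RPKM in each of the 4 columns they differed by 1.21. Without a minimum they differed by 0.03, over 23038 genes of which 6986 had no read in any library. Span includes introns, the length of the mature transcripts was not used here, and points in one column share their libraries.

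**Figure D4:**
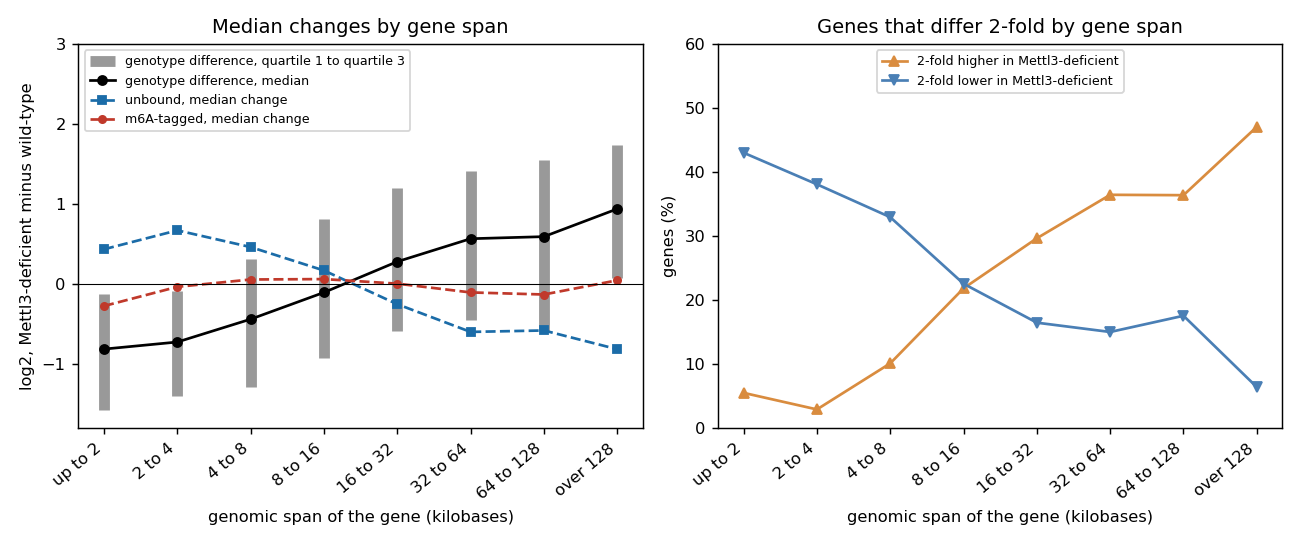
Left, the median log2 difference (black, with grey bars from the first to the third quartile) and the median changes of unbound and m6A-tagged RNA for genes grouped by genomic span in kilobases; right, the percentage of genes that differed 2-fold in each direction. The black line climbs from -0.81 to 0.94. The unbound line rises from 0.44 in the shortest group to 0.67 in the next, then mostly descends, to -0.81. The tagged line stays between -0.27, in the shortest group, and 0.06.

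Gene groups took different sides, and each is set here against the 23.7% of all genes that were 2-fold higher and the 22.8% that were 2-fold lower. At the high end stood large nuclear regulators. Of 42 measured chromatin regulators 26 (61.9%) were 2-fold higher and 0 were lower, with a median of 1.47 and a median span of 34052 bases. Without the minimum of 10 RPKM the median of the 96 listed genes in the tables was 0.19. Unbound RNA was 2-fold lower in Mettl3-deficient cells for 30 of the 42, and tagged RNA for 4. Dnmt1, the maintenance DNA methyltransferase, had 38.02 and 4.63 RPKM in unbound and 40.9 and 46.8 RPKM in tagged RNA. Smarca2, an ATPase of the SWI/SNF remodelling complex, had 25.4 and 1.26 RPKM in unbound and 42.4 and 30.3 RPKM in tagged RNA, and the histone deacetylase Hdac5 had the highest value of the group, 3.38. The lowest was Suv39h1, a histone H3 methyltransferase, at -0.74.

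Aminoacyl-tRNA synthetases, which charge tRNAs, were next, with 20 of 34 higher, 5 lower and a median of 1.32. Iars, the isoleucyl enzyme, had 36.6 and 2.51 RPKM in unbound and 22.9 and 31.8 RPKM in tagged RNA. The lowest included the mitochondrial enzymes Ears2 at -2.66 and Lars2 at -2.20. Lars2 differed in every column, with 9.09 and 213 RPKM in input, and whether all of these reads come from its mRNA was not tested.

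RNA processing and nuclear transport genes were mostly on the same side. Of 86 splicing factors and hnRNPs 36 were higher and 7 lower (median 0.75), of 38 RNA helicases 18 higher and 1 lower (median 0.81), and of 18 nuclear pore genes 7 higher and 2 lower (median 0.82). Sf3b2, a subunit of the U2 snRNP, had 145 and 15.5 RPKM in unbound and 95.9 and 109 RPKM in tagged RNA. The lists were not uniform. The small subunit Sf3b5 of the same particle had 73.0 and 213 RPKM in unbound RNA and a difference of -2.10, and Nup62 and Nup50 were at -4.37 and -2.94 while the scaffold nucleoporins Nup107, Nup93 and Nup133 were at 2.78, 2.66 and 2.65.

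Growth and division genes had higher medians as well. Of 91 DNA replication and mitosis genes 37 were higher and 12 lower (median 0.59), of 62 MYC target genes 21 and 9 (median 0.67) and of 102 ribosome biogenesis genes 36 and 20 (median 0.43). The condensin subunits Ncaph and Ncapd2 were at 3.52 and 3.43, and the survivin gene Birc5 and the thymidine kinase Tk1 at -2.05 and -1.93. In ribosome biogenesis the ends were Nop14 at 2.95, with 38.1 and 3.41 RPKM in unbound RNA, and Grwd1 at -4.98.

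Mitochondrial and ribosomal proteins, most of them short genes, were on the low side. Of 78 mitochondrial ribosomal proteins 44 (56.4%) were 2-fold lower and 0 higher, with a median of -1.10. In unbound RNA 35 of them were 2-fold higher in Mettl3-deficient cells and 1 lower; in tagged RNA 2 were higher and 2 lower. Mrpl43 had 23.4 and 313 RPKM in unbound and 114 and 143 RPKM in tagged RNA. Of 67 genes of mitochondrial import and assembly 31 were lower and 2 higher (median -0.94), led by the cytochrome oxidase assembly factors Coa6 at -3.54 and Coa4 at -3.22.

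Nuclear oxidative phosphorylation genes had 26 of 83 lower and 6 higher (median -0.59), and the succinate dehydrogenase subunit Sdha, at 1.90, was the highest. This list was matched by gene name and also took in Emc8 and Dmac2. Of 83 cytosolic ribosomal proteins 31 were lower and 1, Rpl3, was higher (median -0.70). These ribosomal protein transcripts lay on the unbound side in both genotypes, by 2-fold for 74 of 83 among wild-type and for 80 among Mettl3-deficient ratios. Tagged RNA contributed here, since 18 of the 83 were 2-fold lower in Mettl3-deficient tagged RNA. Many have processed pseudogenes, whose reads the authors' counting could split.

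**Figure D5:**
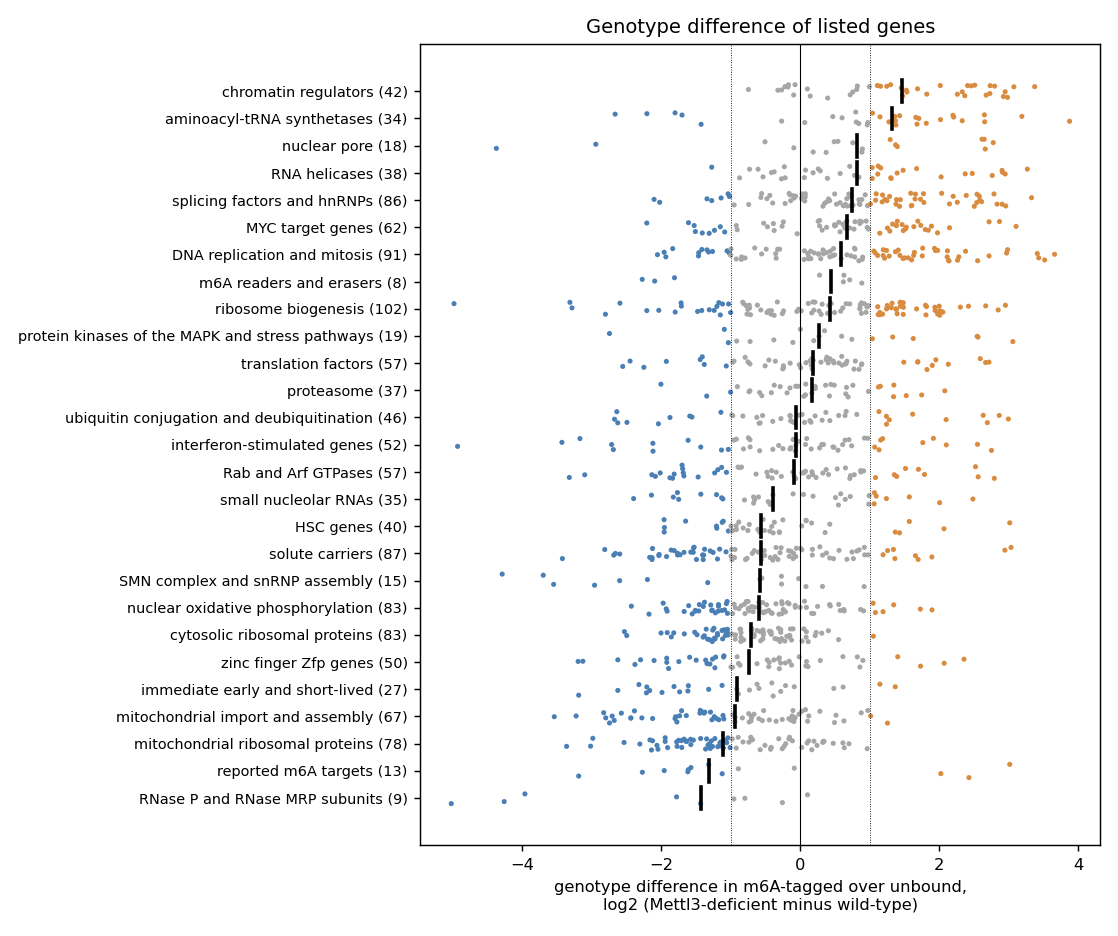
Log2 difference of each measured gene (points) for gene lists with at least 8 measured members, the number of which stands in brackets; black bars are medians and dotted lines mark 2-fold. Medians run from -1.43 for ribonuclease P and MRP subunits, a list chosen after its values were seen, to 1.47 for chromatin regulators, and most lists have points on both sides of 0.

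Transcripts of short-lived regulators were high in tagged RNA in both genotypes, and for many of them the ratio was smaller in Mettl3-deficient cells. Of 27 immediate early and short-lived genes 24 had at least 2-fold more tagged than unbound RNA in wild-type cells, and 20 had so in Mettl3-deficient cells. The difference was 2-fold lower for 13, 2-fold higher for 2, and had a median of -0.91. Jun, a subunit of AP-1, had 0.541 and 8.92 RPKM in unbound and 54.7 and 76.7 RPKM in tagged RNA. Zfp36l2, which promotes decay of AU-rich transcripts, differed in the other fraction, with 7.07 and 7.83 RPKM in unbound and 119 and 20.3 RPKM in tagged RNA. Its input was 61.7 and 14.5 RPKM, so the transcript itself was also less abundant in the Mettl3-deficient column. Nfkbia, the inhibitor of NF-kappa-B, was the highest at 1.37 and had 131 and 391.9 RPKM in tagged RNA.

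Zinc finger genes named Zfp followed, with 20 of 50 lower, 4 higher and a median of -0.74. The list was matched by gene name and also took in Zpr1. Of the 50, 33 were 2-fold higher in tagged than in unbound RNA among wild-type ratios, and 32 among Mettl3-deficient ones.

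The genes reported elsewhere to be m6A targets in blood or leukaemia cells divided. Of 13 measured, 8 were 2-fold lower and 3 higher, with a median of -1.32, or -0.72 without the minimum of 10 RPKM. Myc, the growth regulator, lies on chromosome 15 from position 61985341 to 61990361 and had 117 and 98.01 RPKM in input, 5.82 and 48.0 RPKM in unbound and 174 and 137 RPKM in tagged RNA. Its difference of -3.19 came mainly from an unbound change of 2.84. Tgif1, Gata2, Socs2, Cish, Mdm2, Mcl1 and Tal1 were the other 7 lower genes, from -2.27 to -1.12. Cish and Socs2, feedback inhibitors of cytokine signalling, were higher in both Mettl3-deficient fractions, and more so in unbound RNA, with 8.93 and 79.4 RPKM for Cish.

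Kit, Myb and Mybl2 were the 3 higher genes of that list. Kit, the receptor of stem cell factor, lies on chromosome 5 and had 165 and 92.4 RPKM in input, 138 and 9.52 RPKM in unbound and 122 and 73.9 RPKM in tagged RNA, a difference of 3.02. Myb had 92.4 and 19.1 RPKM in unbound and 66.4 and 76.9 RPKM in tagged RNA. These 3 genes span from 30362 to 81736 bases. The lower genes span from 5021 bases (Myc) to 33419 bases (Socs2), so the spans of higher and lower genes overlap. The list shares genes with the immediate early and HSC lists.

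Of 40 measured HSC genes 9 were lower, 5 higher and the median was -0.56. The transcription factors Gata3, Gata2 and Mycn were lowest, at -1.96, -1.96 and -1.95. Mycn had 6.87 and 47.2 RPKM in unbound and 94.6 and 150 RPKM in tagged RNA. Kit and Tie1 were highest, at 3.02 and 2.07.

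Among the m6A machinery itself, the 3 cytoplasmic readers Ythdf1, Ythdf2 and Ythdf3 were 2-fold lower, at -1.81, -2.09 and -2.27. Ythdf2, which recruits deadenylation to methylated transcripts, had 2.38 and 21.0 RPKM in unbound and 49.4 and 76.0 RPKM in tagged RNA. The other 5 measured readers and erasers, Elavl1, Hnrnpa2b1, Rbmx, the nuclear reader Ythdc1 and Hnrnpc, were within 2-fold, from 0.28 to 0.89. Of the writers and related methyltransferases Mettl3, Mettl5 and Mettl16 were measured and all were within 2-fold. Mettl14 fell under the 10 RPKM minimum.

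The remaining groups had medians nearer to that of all genes, except solute carriers and small nucleolar RNAs. Of 52 interferon-stimulated genes, a response that pIpC triggers through interferon, 9 were higher and 11 lower (median -0.06). Rtp4 and Irgm1 were among the lowest, Irgm1 with 2.68 and 49.1 RPKM in unbound RNA, and Gbp3 was the highest at 2.75. Solute carriers were on the low side, with 9 of 87 higher and 32 lower (median -0.56, or -0.01 without the minimum of 10 RPKM). That list was made by gene name and takes in Slc9a3r1 and Slc7a6os, which are not carriers. Translation factors (10 of 57 higher, 8 lower), proteasome subunits (7 of 37 and 3) and ubiquitin enzymes (10 of 46 and 9) had medians between -0.09 and 0.27. So did Rab and Arf GTPases (9 of 57 and 17) and MAPK pathway genes (6 of 19 and 3). The MAPK list is of kinases by gene name and takes in Mapk1ip1 and Mapk8ip3, which are not kinases. At a minimum of 50 RPKM the medians of the ubiquitin enzymes and the Rab and Arf genes changed sign, to 0.16 and 0.05, and over all genes that of the interferon-stimulated genes did, to 0.10. Of 35 small nucleolar RNAs and their host genes 7 were higher and 9 lower (median -0.39, or -1.13 at a minimum of 50 RPKM); most of these RNAs lie within a host gene, so their reads cannot be told from those of the host.

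Most markers of granulocytes differed in both fractions together. Of 15 neutrophil and promyelocyte genes 14 were 2-fold lower in Mettl3-deficient cells in unbound and in tagged RNA, and the summed level of the list was 11485 and 2751 RPKM in unbound and 9196 and 1545 RPKM in tagged RNA. Their median difference was 0.13, with 5 higher and 1 lower, and was -0.03 with median-ratio scaling and -0.10 where each of the 4 columns had at least 5 RPKM. Ltf, a granule protein, was at 2.72, with 647 and 9.48 RPKM in unbound and 649 and 68.5 RPKM in tagged RNA. Of 8 eosinophil and basophil genes 6 were 2-fold lower in both fractions, and 1, Ear2, had a 2-fold lower ratio. Of 8 erythroid genes 2 were higher and 1 lower, of 9 megakaryocyte genes 3 and 3 (median -0.31, or 1.01 at a minimum of 50 RPKM), of 5 B cell genes 0 and 1, of 3 monocyte genes 0 and 1, of 2 T cell genes 0 and 1 and of 2 endothelial genes 0 and 0. The part of such cells in the differences of other genes was not tested.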

How the data were processed

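The 6295 genes, gene lists and sizes compared were chosen with earlier results of these data known. Each genotype has its own deposited table of RPKM for input, unbound and m6A-tagged RNA, per the file headers. The submitters' processing notes name the build mm10 and the tools Picard and edgeR, without saying what each did. Which aligner and counter were run is not given in the sources used here. Deposited RPKM values follow the mean of 3 libraries with 1 read added per gene and library, as worked out from 6986 genes without reads, whose lengths came out whole within 0.005 bases. The same genes gave the depth of each library, and reads of single libraries were solved for 8 compared genes of known length.

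Tables were joined by gene identifier, after 11 rows that name no gene were dropped; 25 names differed between the tables (spreadsheet dates) and RefSeq symbols were used. RefSeq matched 22959 of 23038 identifiers. Ratios were log2((RPKM + 1)/(RPKM + 1)). The planned limma or edgeR test needs a value per library and was not possible, so no p-value is given. Computation used Python 3.11.15, numpy 2.4.6 and pandas 2.3.3, and was tested on simulated data.

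Named genes are the 15 highest and 15 lowest differences, the 10 highest and 10 lowest with at least 5 RPKM in each of the 4 columns, 5 at each end that changed sides, 5 most alike, the 3 highest and 3 lowest of each list with at least 5 measured members, Mettl3, Mettl14, Myc and the genes at the minimum. Other genes were named after their values were seen, among them Mrm2, Jun, the sort markers, Cd3e, Elavl1, Hnrnpa2b1, Mettl5, Mettl16, the reported targets Socs2, Cish, Mdm2, Mcl1 and Tal1, and the genes without reads. The lists of ribonuclease P and MRP subunits and of SMN complex genes were also chosen that way. One gene that the rule names is not reported here.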

Additional observations from a re-analysis of the deposited data

How the results depend on the processing

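A value counted as moved beyond a 1.5-fold change, or beyond 10 percentage points for a share, since no spread between replicates is known. Of 228 named genes 10 had the opposite sign under at least 1 of the alternatives that were run, all with a difference of at most 0.78 in size, among them Eif3a, Swap70, Angpt1, Parp10 and Dnttip2, chosen for values near 0. So did the medians of 6 of 32 gene lists: erythroid (0.02 with 5 RPKM added, 0.10 without the minimum), interferon-stimulated (0.10 without it), ubiquitin and Rab and Arf genes (0.16 and 0.05 at a minimum of 50 RPKM), megakaryocyte (1.01 there, 0.33 with at least 5 RPKM in each of the 4 columns) and neutrophil genes (-0.10 with that minimum, -0.03 with median-ratio scaling). Over all genes without the 10 RPKM minimum, 2621 genes were 2-fold higher and 2854 lower, 4098 genes were 2-fold higher in tagged RNA in one genotype and not the other (1792 with the minimum), the unbound change was the larger for 67.0% of genes that differed 2-fold (81.1% with it), and the outer span groups differed by 0.026 (1.31 with it). At a minimum of 50 RPKM the 3 counts were 494, 464 and 486, and with at least 5 RPKM in each of the 4 columns 912 genes were lower. At 4-fold the counts were 503 and 504. The cause of these moves beyond the changed number of genes was not tested. The median over the 6295 genes, -0.01, became -0.16 with median-ratio scaling and -0.07 with upper-quartile scaling. Of 228 named genes, 30 moved when 0.1 RPKM was added before the log and 78 when 5 RPKM was.

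No paired analysis was possible because each group was deposited as 1 mean column, and for the same reason leaving out each replicate was not run. Coding and transcript length were not used here. A low value can rest on 1 library. Among genes with 60 to 300 solved reads, the share with at least 90% of them from 1 library was worked out. It was 64.8% in wild-type unbound, 76.7% in wild-type tagged, 56.5% in Mettl3-deficient unbound and 22.2% in Mettl3-deficient tagged RNA. These genes were selected for a column without reads. Only 8 compared genes had a length known in this way, so the percentages describe mostly genes outside the comparison.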

Other observations

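The subunits of ribonuclease P and ribonuclease MRP, which process tRNA and rRNA precursors, were looked at because Rpp38, Rpp25l and Pop7 ranked among the lowest differences, so the list is a description after the fact. Of 9 measured subunits 5 were 2-fold lower and 0 higher, with a median of -1.43. Unbound RNA, wild-type first, was 0.222 and 32.5 RPKM for Rpp38, 8.05 and 155 RPKM for Rpp25l, and 34.6 and 101 RPKM for Pop5. Tagged RNA of the 9 differed by under 2-fold in each case. Rpp21 and Pop4 had differences of -0.25 and 0.11. Of 15 measured genes of the SMN complex and small nuclear RNP assembly, listed for the same reason, 7 were lower and 0 higher. Gemin7 had 9.54 and 142 RPKM in unbound and 150 and 174 RPKM in tagged RNA, and Lsm10, a protein of the U7 particle, had 6.98 and 169 RPKM in unbound RNA.

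A few genes had no read in any library of a group. C3, Hsd11b1 and Mns1 had 0 reads in the 3 Mettl3-deficient unbound libraries, with 29.3, 14.3 and 8.20 RPKM in wild-type unbound RNA. In Mettl3-deficient input the 3 libraries held 65, 77 and 109 reads of C3 and 6, 22 and 53 reads of Hsd11b1. Cst7 had 0 reads in the 3 Mettl3-deficient tagged libraries and 0, 34 and 208 reads in the unbound ones. Ccn3 had 0 reads in the wild-type unbound and tagged libraries, 0, 1 and 50 reads in wild-type input, and 24.7 RPKM in Mettl3-deficient input.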
